A study of Mus musculus with 20 samples.

Results

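The genes described here encode the nuclear subunits of the mitochondrial respiratory chain and of the ATP synthase that it drives. They were taken by symbol, as every gene whose name starts with Nduf, Uqcr, Sdh, Atp5, Cox4, Cox5, Cox6, Cox7 or Cox8, leaving out pseudogene symbols and the Sdhaf assembly factors. This gave 91 symbols of the 39365 in the series, 90 of them in the time course table and 91 in the discovery table. By role there were 7 core and 30 accessory subunits of complex I with 4 of its assembly factors, 4 subunits of complex II and 8 of complex III. A further 10 general subunits and 8 tissue-restricted isoforms belong to complex IV or, for Ndufa4l2, to its complex I namesake, and 5 head and 10 membrane or stalk subunits make up the ATP synthase. The symbol rule also takes 5 genes outside those roles: Cox7a2l, which takes part in assembling respiratory supercomplexes, and Cox4nb, Atp5s, Atp5sl and Atp5l2 (the last is annotated as a pseudogene by RefSeq and was in the discovery table only).

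The study measured mRNA by sequencing in 20 mouse libraries, to ask how depletion of the long noncoding RNA Braveheart changes the differentiation of embryonic stem cells towards heart muscle. The time course had 12 libraries of E14 embryonic stem cells (strain 129/Ola) that carried lentiviral pLKO.1 short hairpins under puromycin selection. These were 3 cultures, carrying a scrambled hairpin or 1 of 2 hairpins (A, B) against Braveheart, with a single library from each at days 0, 3, 6 and 9, and the labels describe both embryoid bodies and a directed cardiomyocyte protocol. The discovery set had 8 libraries: E14 and v6.5 (129/svJae x C57BL/6) stem cells (mESC) with 2 libraries each, Oct4-GFP embryonic fibroblasts (MEF) with 1, the induced pluripotent line MCV8.1 (miPS) with 1, and the partially reprogrammed lines 11.3/MCV6 and 11.5/MCV8 with 1 each. The reprogrammed lines carry retroviral Oct4, Sox2, c-myc and Klf4, each is a single line, and stem cells grown on irradiated fibroblasts were pre-plated to remove these feeders. Nothing in the labels says that libraries of a group came from separate cultures, and the tests then reflect library-to-library spread, which may be technical.

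As background, complexes I and II feed electrons from NADH and succinate into the inner mitochondrial membrane, complex III passes them to cytochrome c, and complex IV hands them to oxygen. Complexes I, III and IV pump protons as they work, and complex V, the ATP synthase, lets protons flow back through its membrane part to turn its catalytic head. Pluripotent stem cells are known for relying strongly on glycolysis, whereas the adult heart is among the tissues richest in respiratory chains, and some complex IV subunits have separate liver-type, heart-type or testis-type isoforms.

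The promoters of 6 members are shown because 3 of them (Uqcrc1, Atp5b and Cox5a) were lower at days 6 and 9 in the scrambled and hairpin A cultures, and the other 3 (Uqcrh, Cox6b1 and Atp5k) rose by day 9. Each is 300 bases on the gene's own strand, from 250 bases before to 50 after the transcription start, taken from RefSeq on GRCm38.p6. On mm9, the build of the expression tables, the loci are Uqcrc1 at chr9:108838660-108851686, Atp5b at chr10:127520362-127527444, Cox5a at chr9:57369038-57380233, Uqcrh at chr4:115739569-115747675, Cox6b1 at chr7:31401992-31411170 and Atp5k at chr5:108862271-108863397. Capitals mark exact matches, on either strand, to GCGCA joined to its reverse complement TGCGC (the NRF1 palindrome, which reads alike on both strands), CCGGAAG (an ETS-type core) or AAGATGGCG (a YY1-type element, whose first 3 letters can overlap the end of the ETS core).

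Uqcrc1: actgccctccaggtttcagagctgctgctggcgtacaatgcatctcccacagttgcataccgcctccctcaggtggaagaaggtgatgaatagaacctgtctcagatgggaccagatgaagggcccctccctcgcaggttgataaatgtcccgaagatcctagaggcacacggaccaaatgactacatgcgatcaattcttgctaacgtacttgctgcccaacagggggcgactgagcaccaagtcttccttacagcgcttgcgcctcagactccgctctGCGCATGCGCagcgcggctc
Atp5b: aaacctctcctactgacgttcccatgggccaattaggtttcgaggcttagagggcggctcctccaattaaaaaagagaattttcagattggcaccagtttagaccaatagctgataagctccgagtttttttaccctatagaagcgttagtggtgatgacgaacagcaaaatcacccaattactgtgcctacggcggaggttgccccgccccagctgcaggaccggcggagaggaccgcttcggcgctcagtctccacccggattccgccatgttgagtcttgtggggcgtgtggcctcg
Cox5a: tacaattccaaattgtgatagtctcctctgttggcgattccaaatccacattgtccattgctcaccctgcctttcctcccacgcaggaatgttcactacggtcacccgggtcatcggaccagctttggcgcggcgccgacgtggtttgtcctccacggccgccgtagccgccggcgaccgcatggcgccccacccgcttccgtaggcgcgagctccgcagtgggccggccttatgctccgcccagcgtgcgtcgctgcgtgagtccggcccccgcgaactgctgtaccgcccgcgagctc
Uqcrh: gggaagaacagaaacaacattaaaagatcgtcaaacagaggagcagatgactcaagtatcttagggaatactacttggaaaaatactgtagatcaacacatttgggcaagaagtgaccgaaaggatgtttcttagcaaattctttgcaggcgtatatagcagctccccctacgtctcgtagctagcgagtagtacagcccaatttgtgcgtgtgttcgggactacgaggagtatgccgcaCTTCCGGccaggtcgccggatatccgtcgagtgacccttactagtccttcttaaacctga
Cox6b1: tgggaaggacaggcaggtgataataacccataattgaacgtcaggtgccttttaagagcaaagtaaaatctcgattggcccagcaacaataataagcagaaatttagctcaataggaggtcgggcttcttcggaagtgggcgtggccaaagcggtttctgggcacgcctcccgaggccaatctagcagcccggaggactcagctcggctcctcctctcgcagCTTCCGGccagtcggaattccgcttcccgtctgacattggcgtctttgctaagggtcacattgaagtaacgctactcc
Atp5k: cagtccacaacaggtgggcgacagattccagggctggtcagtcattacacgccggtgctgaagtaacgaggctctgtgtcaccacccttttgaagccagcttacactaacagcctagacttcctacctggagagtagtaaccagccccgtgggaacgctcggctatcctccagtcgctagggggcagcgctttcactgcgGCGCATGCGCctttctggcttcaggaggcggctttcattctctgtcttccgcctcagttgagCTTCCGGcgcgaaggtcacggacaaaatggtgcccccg

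These windows lie at chr9:108936398-108936697 (plus strand, Uqcrc1), chr10:128083057-128083356 (plus, Atp5b), chr9:57520982-57521281 (plus, Cox5a), chr4:116075021-116075320 (minus, Uqcrh), chr7:30626065-30626364 (minus, Cox6b1) and chr5:108434350-108434649 (minus, Atp5k). Counting the first transcribed base as 1, the NRF1 palindrome of Uqcrc1 starts at base 31 and that of Atp5k at base -50. The ETS core starts at base -10 in Uqcrh, at -28 in Cox6b1 and at 13 in Atp5k, in each case on the opposite strand, while the Atp5b and Cox5a windows held none of the 3 motifs. Of the 91 members, 74 matched a promoter entry, 3 of them through a newer symbol. The NRF1 palindrome was in 6 of these (8.11%; Atp5g2, Atp5k, Cox6a1, Ndufa11, Ndufaf4 and Uqcrc1) against 1.07% of the promoters of all 27025 genes in the table. The ETS core was in 17 (23.0%) against 9.93% of all, and the YY1 element in 8 (10.8%) against 1.64%. At least 1 of the 3 was found in 28 of 74 (37.8%), against 12.1% of all promoters. A match is a description of the sequence only.

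The discovery libraries held between 7536503 and 23662593 reads by their expected counts, and the smallest FPKM steps put the time course libraries at 0.689 to 1.12 times the depth of the scrambled day 0 library. Hairpin B of days 6 and 9 stood apart. The 10 pluripotency markers summed to between 6084 and 8041 FPKM in the 3 day 0 libraries, to 811 and 968 at day 9 of the scrambled and hairpin A cultures, and to 7807 at day 9 of hairpin B, with none at 0. The 12 cardiomyocyte markers summed to 466 FPKM at day 9 in the scrambled library, at 83.8 for hairpin A and at 26.1 for hairpin B, against 12.4 to 12.9 at day 0, and none was at 0 at day 9. At day 9, 5 of 11 tested cardiomyocyte and 3 of 5 endoderm markers rose. The 9 fibroblast markers summed to 21446 TPM in MEF and to between 387 and 776 TPM in the 7 other discovery libraries. In the discovery set the v6.5 replicates stood apart from each other: 37 of 86 tested members differed at least 1.5-fold between the v6.5 replicates (52.6% of all genes), against 3 members between the E14 replicates (4.44% of all genes). Nanog was at 0.951 and 1.67 TPM in the partially reprogrammed lines and at 231 to 331 TPM in mESC. Pou5f1 and Klf4, whose transgenes these lines carry, were higher there than in mESC. Sox2, whose transgene they also carry, was not higher in both lines. It was at 962 TPM in MCV6 and 166 TPM in MCV8, above and below the 204 to 647 TPM of mESC. The level of Braveheart was not analysed here. In mRNA from whole cultures, fewer cells of a type and less RNA per cell cannot be told apart.

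Most members were well expressed, at levels that differed widely between roles. In the time course 83 of 90 members had a median of at least 10 FPKM over the 12 libraries, and the median member was at 117 FPKM. In the discovery set 83 of 91 had a median of at least 10 TPM, and the median member was at 143 TPM. By FPKM per gene the ATP synthase head had the highest median (342 FPKM for the median of its 5 subunits), followed by complex IV (331 FPKM), the ATP synthase membrane part (255 FPKM) and complex III (174 FPKM). Complex II (108 FPKM), complex I accessory (102 FPKM) and complex I core subunits (71.0 FPKM) were lower, and the complex I assembly factors lower again (17.0 FPKM). The order differed in part in the discovery set. There complex III (241 TPM) lay above the ATP synthase membrane part (233 TPM), and complex I core (126 TPM) above accessory subunits (112 TPM). Atp5b, the catalytic beta subunit, was the most abundant member in both tables, with a median of 997 FPKM and 1537 TPM. Summed over all members, the chain took 2.46% to 2.82% of the FPKM of all loci of at least 300 bases in the 12 libraries and 1.46% to 2.13% of the TPM in the 8.

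Most members changed little within the time course. Of the 90, 69 differed less than 2-fold between their lowest and highest library, 16 differed at least 2-fold, and 5 were listed at 0 somewhere (Cox4i2, Cox6a2, Cox7b2, Cox8b and Cox8c). The narrowest was Sdha, the flavoprotein of complex II, at 93.0 to 111 FPKM. Ndufs1, a core complex I subunit that carries iron-sulfur clusters, lay between 53.3 and 66.9 FPKM, and Ndufv1, the NADH-binding subunit, between 59.3 and 95.8 FPKM. Uqcrfs1, the Rieske iron-sulfur protein of complex III, lay between 106 and 141 FPKM, and Cox4i1, a general complex IV subunit, between 359 and 567 FPKM. None of these 5 passed the test at any day against day 0, with adjusted p at day 9 of 0.316 for Sdha, 0.675 for Ndufs1, 0.545 for Ndufv1, 0.437 for Uqcrfs1 and 0.727 for Cox4i1. The order of members by level was shared between libraries, with a Spearman correlation over the 90 members (a description, since these values share gene lengths and the annotation) of 0.956 between days 0 and 9 of the scrambled culture. Between the day 0 libraries and the E14 libraries of the discovery set, made with another pipeline, it was 0.766 to 0.808.

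In the fit over all 3 cultures, 8 of 88 tested members changed between day 0 and day 9, 7 of them rising and 1 falling. That is 9.09% of the members against 16.6% of all 14108 genes tested (10.3% higher and 6.22% lower). The members' median difference was 0.07 on the log2(FPKM + 1) scale and that of all genes 0.10, while the median size of the difference, whatever its direction, was 0.20 for members and 0.39 for all genes. A member's 3 day 9 libraries all lay above its 3 day 0 libraries in 22 of 88 cases (25% against 19.5% of all genes) and all lay below in 4 (4.55% against 11.5%). The 7 risers that passed came from complexes I, III, IV and V, with 1 assembly factor and 1 supercomplex factor. None was from complex II, which has only 4 members, too few to set against the 10.3% of all genes. Its subunits Sdhb and Sdhd were among the 22 that lay above without overlap, and Sdhc was among the 4 that lay below.

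Uqcrh, the acidic hinge protein of complex III, was at 272, 270 and 261 FPKM at day 0 (scrambled, hairpin A, hairpin B), and at 499, 446 and 342 FPKM at day 9. The groups did not overlap, and the hairpin B library rose least. The log2 difference was 0.66 (SE 0.14, adjusted p = 0.025). Atp5k, the small e subunit at the membrane part of the ATP synthase, went from 262, 233 and 326 FPKM to 474, 401 and 402 FPKM, again without overlap (log2 difference 0.65, SE 0.14, adjusted p = 0.023). Both genes rose at least 1.5-fold in the scrambled and hairpin A cultures, where only 3 of 88 members did (3.41% against 22.4% of all genes), the third being Cox4i2.

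Cox7a2l rose most evenly. It was at 256, 245 and 249 FPKM at day 0 and at 394, 365 and 364 FPKM at day 9 in the same order of cultures, with a log2 difference of 0.58 (SE 0.08, adjusted p = 0.009). It was lower at day 3 than at day 0 in each culture, at 214, 228 and 208 FPKM, and that difference did not pass the test. Cox6b1, the complex IV subunit that faces the intermembrane space, went from 236, 279 and 265 FPKM to 416, 363 and 366 FPKM (log2 difference 0.55, SE 0.11, adjusted p = 0.0197). It had already risen at day 6, when the libraries held 360, 386 and 343 FPKM (log2 difference 0.48, adjusted p = 0.0323). Its day 9 libraries all lay above its day 0 libraries, and so did those of day 6.

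The remaining risers of day 9 belong to complex I, apart from an isoform. Ndufb11, an accessory subunit of the membrane arm encoded on the X chromosome, was at 115, 113 and 114 FPKM at day 0 and at 165, 160 and 146 FPKM at day 9 (log2 difference 0.46, SE 0.09, adjusted p = 0.0189). Ndufaf1, an assembly factor of the membrane arm, went from 16.8, 15.8 and 16.9 FPKM to 24.4, 25.0 and 22.8 FPKM (log2 difference 0.52, SE 0.10, adjusted p = 0.0197). It too had risen at day 6 (log2 difference 0.42, adjusted p = 0.0394), so that Cox6b1 and Ndufaf1 were the 2 members that passed at day 6, against 8.68% of all genes. Cox4i2, a lung-enriched isoform of subunit 4, was at 0.919, 0.957 and 0 FPKM at day 0 and at 2.73, 2.00 and 2.18 FPKM at day 9. Its log2 difference of 1.08 (adjusted p = 0.0488) rests on values near 1 FPKM.

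A single member fell at day 9 in this fit and a single member at day 3. Cox7b2, a testis-type isoform of subunit 7b, was at 1.78, 1.55 and 1.38 FPKM at day 0 and at 0.0658, 0.363 and 0.210 FPKM at day 9, and was listed at 0 at day 6 in the scrambled and hairpin A libraries (log2 difference at day 9 -1.09, adjusted p = 0.0372). Ndufb4, an accessory subunit of the membrane arm, was at 107, 109 and 82.9 FPKM at day 0 and dropped to 54.4, 65.1 and 46.7 FPKM at day 3 (log2 difference -0.84, SE 0.17, adjusted p = 0.0264). Its 3 day 3 libraries all lay below day 0. At day 9 it was at 82.0, 77.8 and 106 FPKM, still below day 0 in the scrambled and hairpin A cultures and above it with hairpin B. It was the 1 member of 88 that passed at day 3, against 6.04% of all genes. Among members that did not pass, the log2 difference at day 3 was -1.49 for Ndufa4l2 and 0.80 for Atp5j (a coupling subunit of the ATP synthase stalk), and at day 6 it was -1.14 for Cox8c.

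These calls rest on few libraries. Cox4i2 and Cox7b2 did not pass with a pseudocount of 0.1, and the day 9 count was 0 without the scrambled day 9 library, 1 without the scrambled day 0 library or either hairpin A library of those days, 5 without hairpin B of day 0 and 25 without hairpin B of day 9 (53.2% of all genes). The day 6 count was 0 without the scrambled library of day 0, 3 or 6, hairpin A of day 0 or 6 or hairpin B of day 3, 1 without scrambled day 9 or hairpin A day 3, 5 without hairpin B of day 6 and 10 without hairpin B of day 9. Ndufb4 did not pass at day 3 without scrambled day 0 or 3, hairpin A day 0 or hairpin B day 3, and the day 3 count was 4 without hairpin B of day 0 and 5 without hairpin B of day 9. With culture as a block, 16 members passed at day 9 (13 higher and 3 lower, against 29.9% of all genes), 7 at day 6 (15.6%) and 3 at day 3 (9.64%), and all 8 of day 9 remained. With the median of all genes made equal in every library, which moves the median difference of all genes at day 9 from 0.10 to -0.03, 6 members were higher and 4 lower at day 9, and Cox4i2 did not pass.

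**Figure D1:**
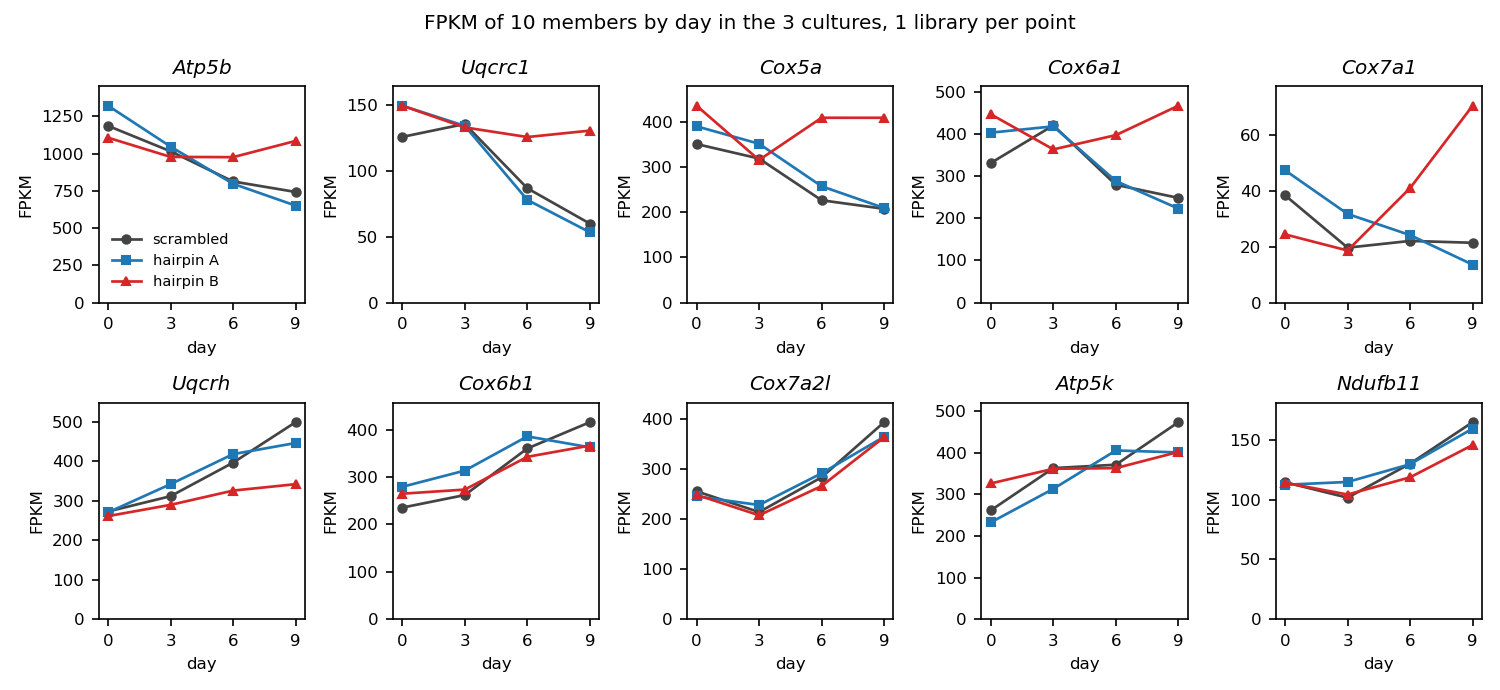
FPKM of 10 members (vertical axes from 0) at days 0, 3, 6 and 9 (horizontal axes), with 1 library per point and grey, blue and red lines for the cultures with the scrambled hairpin, hairpin A and hairpin B. In the top row the hairpin B culture leaves the other 2 after day 3 (Uqcrc1 at 130 FPKM against 59.8 and 53.3 at day 9), while in the bottom row all 3 cultures are higher at day 9 than at day 0.

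Several abundant subunits were lower at day 9 in the scrambled and hairpin A cultures, and with hairpin B less so or not. Atp5b was at 1187, 1016, 813 and 743 FPKM at days 0, 3, 6 and 9 of the scrambled culture and at 1322, 1047, 798 and 651 FPKM with hairpin A. With hairpin B it was at 1107, 978, 976 and 1085 FPKM. Its day 9 libraries all lay below those of day 0, and over the 3 cultures its log2 difference of -0.57 (SE 0.18) missed the threshold (adjusted p = 0.0538).

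Uqcrc1, a core protein of complex III, was at 126, 135, 86.6 and 59.8 FPKM in the scrambled culture and at 149, 134, 77.8 and 53.3 FPKM with hairpin A. With hairpin B it stayed between 125 and 149 FPKM on all 4 days. The log2 difference at day 9 over all cultures was -0.91 (SE 0.29, adjusted p = 0.0569). Cox5a, a general complex IV subunit, was at 350, 318, 226 and 207 FPKM in the scrambled culture, 389, 351, 257 and 209 FPKM with hairpin A, and 435, 315, 408 and 408 FPKM with hairpin B (log2 difference at day 9 -0.58, adjusted p = 0.11). For Uqcrc1 and Cox5a the hairpin B library of day 9 lay within the range of the day 0 libraries, and the other 2 lay below it.

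Without hairpin B of days 6 and 9, in a fit of 10 libraries, 30 members changed at day 9, 15 higher and 15 lower. That was 34.1% of the members against 59.7% of all genes (35.3% higher and 24.5% lower), and it kept all 8 calls of the full fit. Among the 15 lower were Uqcrc1 (log2 difference -1.30, adjusted p = 4.26e-05), Cox5a (-0.88), Atp5b (-0.80), Atp5g1 (-0.76), Cox6a1 (-0.72), Atp5d (-0.53), Atp5a1 (-0.50) and Cox7c (-0.44). Of the 5 subunits of the ATP synthase head 3 were lower, where 24.5% of all genes were lower in this fit: the beta, alpha (Atp5a1) and delta (Atp5d) subunits, as grouped here. Among the 15 higher were the 7 risers of the full fit with Ndufaf4 (0.56), Sdhd (0.49; a membrane anchor of complex II), Uqcrc2 (0.43; the partner core protein of Uqcrc1), Ndufa2 (0.37), Ndufa12 (0.35), Atp5h (0.27) and Ndufb5 (0.26). At day 6, 16 members passed in this fit (9 higher and 7 lower, against 46.1% of all genes), and at day 3, 7 passed (3 higher and 4 lower, against 27% of all genes).

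The pattern differed between partner subunits of the same complex. In the scrambled culture Uqcrc1 went from 126 to 59.8 FPKM between days 0 and 9 while Uqcrc2 went from 127 to 152 FPKM. With hairpin A Uqcrc1 went from 149 to 53.3 FPKM and Uqcrc2 from 118 to 152 FPKM. The core subunits therefore began at a like level and ended apart, in both cultures. Within the ATP synthase, Atp5b and Atp5a1 were lower at day 9 in both cultures, and Atp5c1, the gamma subunit of the central stalk, was at 290 and 278 FPKM at day 0 and at 333 and 307 FPKM at day 9.

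**Figure D2:**
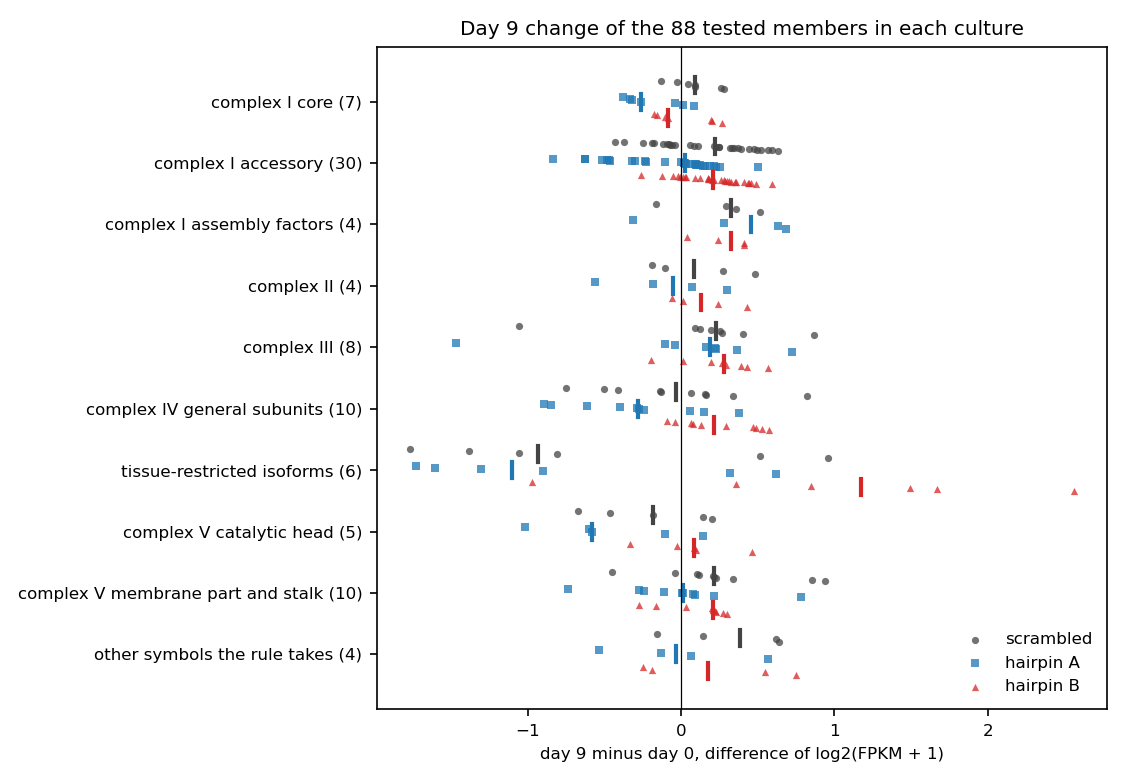
Day 9 minus day 0 difference of log2(FPKM + 1) (horizontal axis) for each of the 88 tested members in the scrambled (grey circles), hairpin A (blue squares) and hairpin B (red triangles) cultures, grouped by complex, with 1 library per day and culture and short bars at each group's median. Most members lie within 0.5 of 0, Uqcrc1 is the lowest of complex III in grey and blue, and the tissue-restricted isoforms spread widest.

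Hardly any gene passed between the hairpin cultures and the scrambled culture, and no member did. In the fit of 8 groups, 0 of 88 passed at days 0, 3, 6 and 9, where 0.0213%, 0.0284%, 0.0425% and 0.0354% of all genes passed by limma, and 0 members had an unadjusted p under 0.05 on any of the 4 days. A count of 0 members is thus near the background and does not show that the members were alike. The spread in this fit comes from hairpins A and B, pooled over the 4 days. Their late differences therefore also enter the errors of days 0 and 3. The members' median difference was 0.03, 0.01, 0.05 and 0.00 at days 0, 3, 6 and 9. The differences of largest size were for Ndufa4l2 (-1.63 at day 0, when the libraries held 18.9, 10.9 and 2.47 FPKM), Cox4i2 (-1.20 at day 6, at 4.70, 2.30 and 0.880 FPKM) and Cox8c (0.96 at day 3, highest with hairpin A at 3.36 FPKM), with the values in the order scrambled, A and B. At day 9 they were Ndufa4l2 (0.62), Ndufv3 (0.55) and Cox7a1 (0.53), and for each of these the hairpin B library lay at least 1.5-fold above the hairpin A library. The change from day 0 to day 9 in the hairpins minus that in the scrambled culture passed the test for 7 of 14108 genes and for 0 members, 1 of which had an unadjusted p under 0.05.

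Late in the course the hairpin cultures differed from each other. At day 9, 12 of 88 members were at least 1.5-fold higher with hairpin B than in both other cultures (13.6% against 16.7% of all genes), and 0 were lower than both by that much (20.9% of all genes). The 12 were Uqcrc1 and Uqcr10 of complex III, Cox5a, Cox6a1, Cox7c, Cox6b2, Cox7a1 and Cox8c of complex IV, Ndufa7, Ndufv3 and Ndufa4l2, and Atp5g1. Uqcr10, a small subunit of complex III, was at 202, 201 and 347 FPKM at day 9 in the scrambled, A and B libraries, and Ndufa7, an accessory subunit of complex I, at 249, 225 and 463 FPKM. Ndufv3, which sits beside the NADH-binding subunits, was at 93.0, 106 and 175 FPKM. These are the libraries in which the pluripotency markers were at 811, 968 and 7807 FPKM, and the part of those markers in the result was not tested.

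The isoform pairs of complex IV were mostly held by the general member. Cox4i1 made up between 98.8% and 100% of the summed FPKM of Cox4i1 and Cox4i2 in all 12 libraries, and Cox6a1 at least 99.1% of Cox6a1 and the heart-type Cox6a2. Cox6a2 was listed at 0 in 7 libraries and was highest in the day 9 scrambled library (2.16 FPKM) and the day 9 hairpin A library (0.511 FPKM). That order is the one of the cardiomyocyte markers at day 9, but Cox6a2 and the heart-type Cox8b were too low to be tested. Cox8b had its largest share of the Cox8 set in the scrambled library of day 0 (0.256%, against 0.128% at day 9). The heart and muscle form Cox7a1 ran another way. It made up 11.4%, 8.13% and 26.4% of its pair with Cox7a2 at day 9 (scrambled, hairpin A, hairpin B). Cox8a made up between 99.0% and 100% of its set, and Cox7b between 99.0% and 100% of its pair with Cox7b2.

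Cox6b2 and Cox7a1, usually described as tissue-restricted, were well expressed in stem cells. Cox6b2, a testis-type form of subunit 6b, was at 92.1, 99.5 and 156 FPKM at day 0, which was 28.1%, 26.3% and 37.0% of the Cox6b pair. Its share was 19.6%, 17.2% and 22.7% at day 6, and 24.1%, 25.6% and 35.2% at day 9, so that each culture was lowest at day 6. Its level at day 9, at 132, 125 and 199 FPKM, did not differ from day 0 in the test (log2 difference 0.40, adjusted p = 0.188), and neither did the level of day 6 (log2 difference -0.33, adjusted p = 0.309).

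Cox7a1, the heart and muscle form of subunit 7a, was highest at day 0 within the scrambled and hairpin A cultures and at day 9 within the hairpin B culture, which held the highest value of all. It was at 38.3, 19.6, 22.0 and 21.4 FPKM at days 0, 3, 6 and 9 of the scrambled culture and at 47.3, 31.7, 24.1 and 13.6 FPKM with hairpin A. With hairpin B it was at 24.4, 18.6, 40.9 and 70.3 FPKM. After day 3 Cox7a1 thus rose with hairpin B, fell with hairpin A and changed little in the scrambled culture. Over all cultures it did not pass at day 9 (log2 difference -0.35, adjusted p = 0.622), and without hairpin B of days 6 and 9 it was lower (log2 difference -1.02, adjusted p = 0.0274). Its share of Cox7a1 and Cox7a2 was 20.4%, 25.5% and 14.8% at day 0 and 11.4%, 8.13% and 26.4% at day 9.

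Ndufa4l2, a paralog of Ndufa4 known to respond to low oxygen, varied most of all members that were never listed at 0, between 1.29 and 19.5 FPKM (15.1-fold). It was at 18.9, 3.58, 16.8 and 4.83 FPKM on the 4 days of the scrambled culture, at 10.9, 1.29, 9.82 and 2.92 FPKM with hairpin A, and at 2.47, 2.56, 11.6 and 19.5 FPKM with hairpin B. The scrambled and hairpin A cultures were low at days 3 and 9 and high at days 0 and 6. Its partner Ndufa4, which is counted here with complex I by its name, although it is now assigned to complex IV, stayed between 371 and 540 FPKM. The c-ring genes Atp5g1, Atp5g2 and Atp5g3 encode the same mature protein, and Atp5g1 gave the smallest share, at 6.12% to 12.2% of the 3 in the time course. In the discovery set its share was 15.1% to 33.4%.

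**Figure D3:**
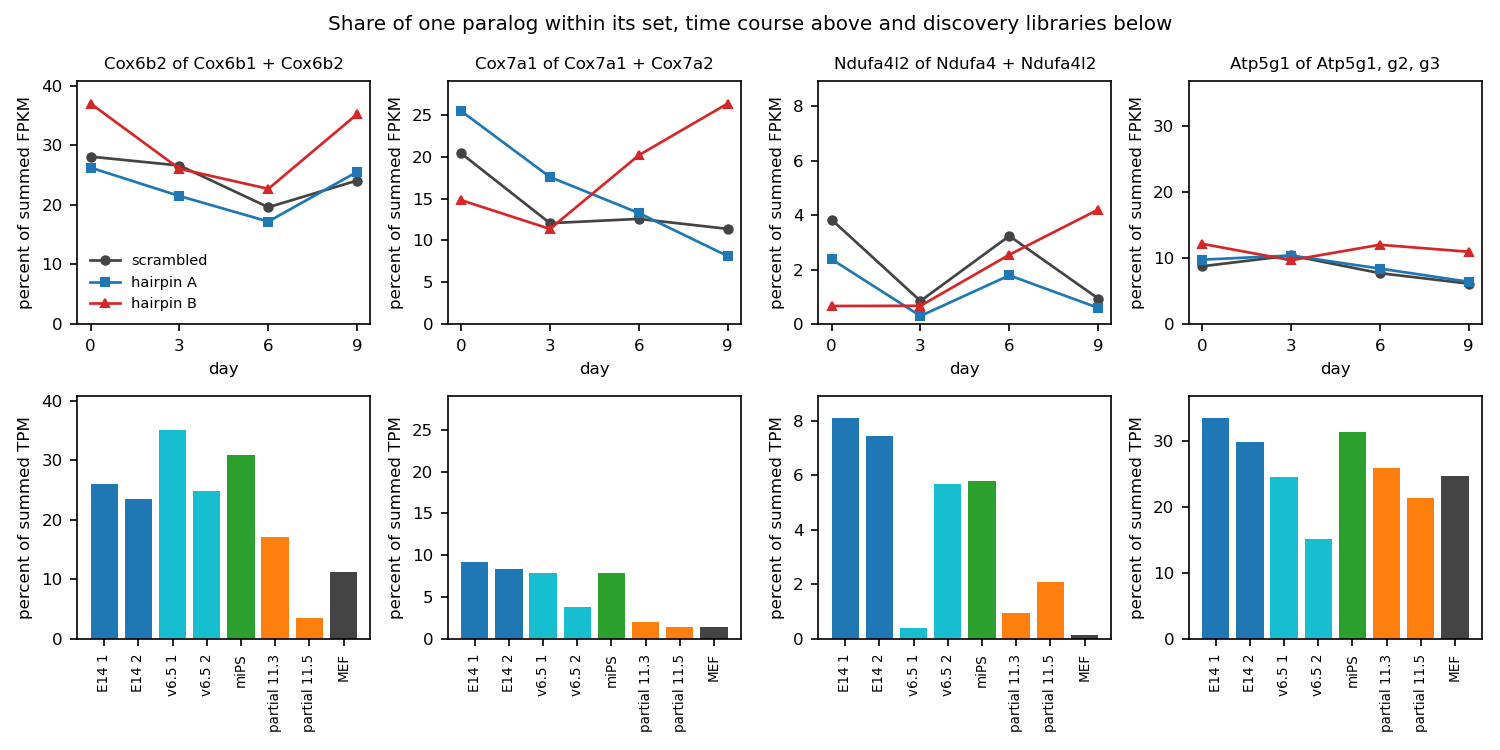
Share of Cox6b2, Cox7a1, Ndufa4l2 and Atp5g1 within their paralog sets (vertical axes, percent of the set's summed FPKM or TPM, from 0), by day in the 3 cultures above and in the 8 discovery libraries below, 1 library per point or bar. Hairpin B turns away from the other cultures after day 3 for Cox7a1 (26.4% at day 9 against 11.4% and 8.13%), and in the discovery set Cox7a1 and Ndufa4l2 are lowest in MEF.

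In the discovery set the share of members that passed was below that of all genes in both comparisons with mESC. Between mESC and MEF, 5 of 86 tested members changed (2 higher and 3 lower in mESC; 5.81% against 28.6% of all 16773 genes), and between mESC and the partially reprogrammed lines 6 changed (3 and 3; 6.98% against 29.7%). The median size of the log2 difference was 0.44 for members and 1.22 for all genes against MEF, and 0.34 and 0.88 against the partially reprogrammed lines. With their sign, the median differences were -0.14 and -0.22 for members and 0.19 and 0.05 for all genes. These follow the scaling of the edgeR fit (TMM), and a log2 difference need not equal the ratio of the TPM printed beside it. By TPM the members summed to 1.75%, 1.70%, 1.95% and 1.46% in mESC (E14, then v6.5 replicates). Their sum was 1.79% and 1.74% in the partially reprogrammed lines and 1.55% in MEF, so it was not lower in mESC throughout. Values below are TPM in the order E14 replicates 1 and 2, v6.5 replicates 1 and 2, miPS, 11.3/MCV6, 11.5/MCV8 and MEF, and the tests used edgeR on expected counts.

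Cox7a1 was higher in mESC than in both other types. It was at 16.6, 15.0, 13.8, 8.90, 19.7, 3.99, 3.15 and 1.76 TPM, so that all 4 mESC libraries and the miPS library lay above the rest. The log2 difference was 2.98 against MEF (adjusted p = 0.0402) and 1.93 against the partially reprogrammed lines (adjusted p = 0.039). The MEF library held only 3 reads of it, and the ratio of pooled reads, each scaled to its library total, was 10.3, with an exact 95% interval from 3.47 to 50.2 that covers counting error only. Of the summed TPM of Cox7a1 and Cox7a2 it made up 9.24%, 8.38%, 7.88% and 3.76% in mESC and 1.38% in MEF.

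Cox6b1 was lower in mESC than in both. It was at 236, 226, 205, 254, 351, 343, 353 and 394 TPM (log2 difference -1.10 against MEF, adjusted p = 0.0196, and -0.73 against the partially reprogrammed lines, adjusted p = 0.0335). All 4 mESC libraries lay below the other 4, the miPS library among them. Ndufa8, an accessory complex I subunit, was likewise lower against both (67.5, 60.6, 58.8, 61.7, 78.3, 96.0, 119 and 101 TPM; log2 differences -1.03, adjusted p = 0.0371, and -0.92, adjusted p = 0.0256).

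Ndufa2, another accessory subunit, was lower in mESC than in MEF (161, 137, 117, 129, 176, 200, 170 and 215 TPM; log2 difference -0.99, adjusted p = 0.0447). Atp5sl, an assembly-related protein now named Dmac2, was higher in mESC than in MEF (26.9, 23.3, 34.5, 23.8, 32.8, 16.1, 19.3 and 8.17 TPM; log2 difference 1.50, adjusted p = 0.0433). The groups overlapped for neither gene. Cox6b1 was thus the 1 member that passed both in the time course and against MEF. It rose from day 0 to day 9 in each culture, and it was higher in the fibroblasts than in mESC. The cultures that rose include hairpin B, whose pluripotency markers were at 7807 FPKM at day 9. Whether the rise is tied to differentiation was not tested.

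Against the partially reprogrammed lines, Ndufa6 and Ndufv3 of complex I were higher in mESC. Ndufa6 was at 227, 231, 153, 183, 156, 108, 81.8 and 95.2 TPM (log2 difference 0.91, adjusted p = 0.0386). Ndufv3 was at 141, 127, 137, 149, 157, 75.9, 69.1 and 116 TPM (log2 difference 0.88, adjusted p = 0.0338), and both partially reprogrammed libraries lay below MEF. Atp5l2 was lower in mESC (log2 difference -2.00, adjusted p = 0.0363), at 0.885 to 3.17 TPM against 5.29 and 4.63 TPM, with at most 11.2 expected reads in any library.

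**Figure D4:**
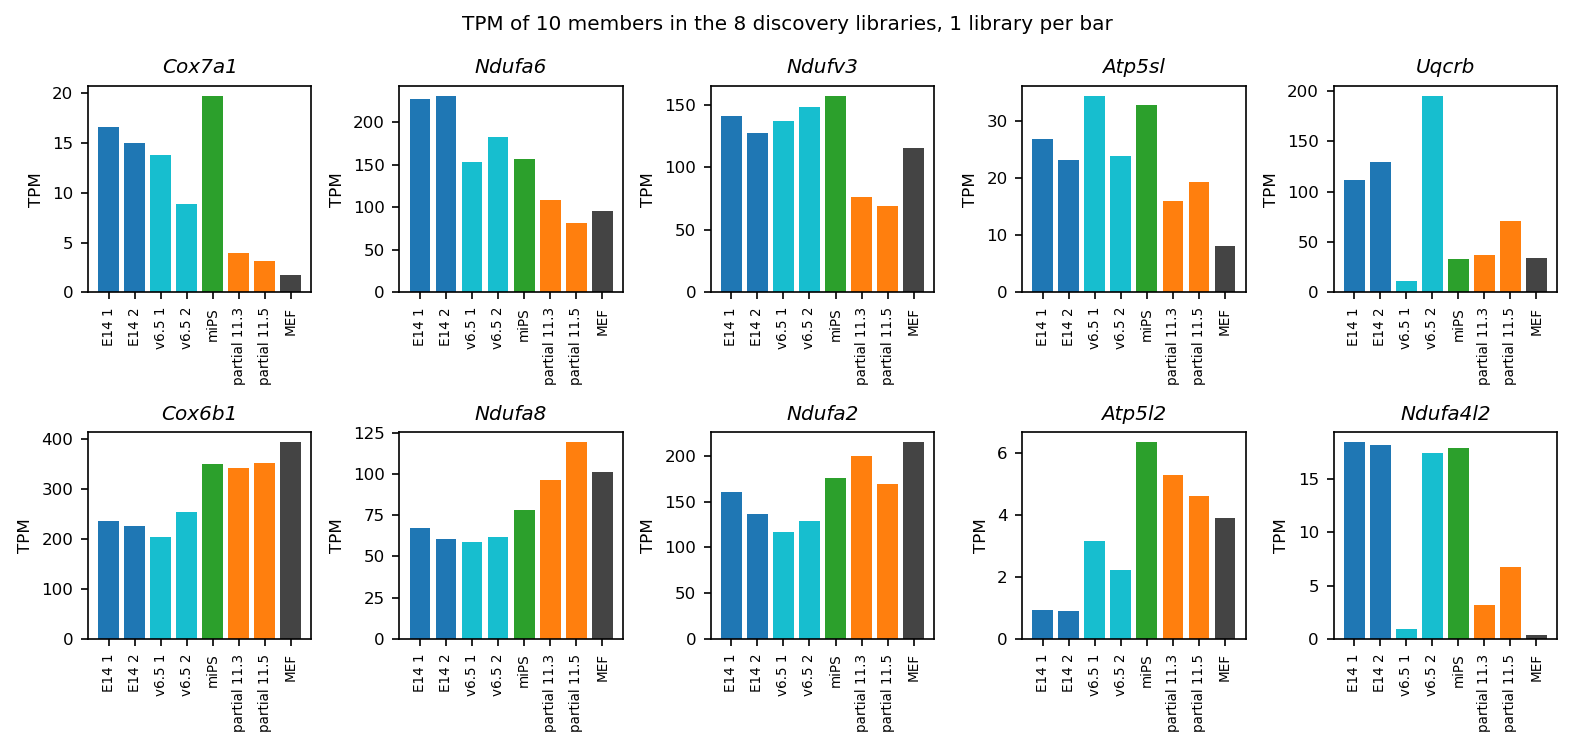
TPM of 10 members (vertical axes from 0) in the 8 discovery libraries, 1 library per bar, coloured blue for E14, cyan for v6.5, green for miPS, orange for the partially reprogrammed lines and grey for MEF. Cox7a1 is above 8 TPM in every mESC and miPS library and below 4 TPM in the rest, and Uqcrb and Ndufa4l2 are low in v6.5 replicate 1 (11.6 and 0.957 TPM).

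Among mESC, a single library, v6.5 replicate 1, stood apart for some members. Uqcrb, a small subunit of complex III, was at 111, 129, 11.6 and 195 TPM in mESC and at 32.9, 37.4, 70.4 and 33.8 TPM in miPS, the partially reprogrammed lines and MEF. Ndufa4l2 was at 18.5, 18.2, 0.957 and 17.4 TPM in mESC, at 17.9 TPM in miPS and at 3.14 and 6.74 TPM in the partially reprogrammed lines. It had 0 reads in MEF, so that the E14 libraries were at least 16.5-fold and 15.8-fold higher than a floor of 3 MEF reads, v6.5 replicate 2 at least 17.9-fold and miPS at least 19.9-fold. Replicate 1 of v6.5 held 2 reads of it. These values put it below all other mESC libraries for Ndufa4l2 and Uqcrb alike.

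Without v6.5 replicate 1, 31 members changed between mESC and MEF (10 higher and 21 lower, against 50.7% of all genes) and 36 against the partially reprogrammed lines (8 and 28, against 51.1%). Higher in mESC than in MEF were then Uqcrb (log2 difference 1.80), Atp5s (1.50), Ndufaf3 (1.43), Ndufaf4 (1.40), Ndufs1 (0.84), Cox7b (0.74) and Atp5a1 (0.65), besides Cox7a1, Atp5sl and Ndufa4l2. Lower were 21 subunits, among them Ndufa3 (-1.74), Atp5d (-1.60), Ndufa11 (-1.56), Uqcrq (-1.36), Uqcr11 (-1.28), Cox6a1 (-1.25) and all 3 c-ring genes (Atp5g1 -1.04, Atp5g2 -0.99 and Atp5g3 -0.77). The c-ring genes were also lower than in the partially reprogrammed lines (-1.13, -1.20 and -0.88), with Ndufb8 (-1.70), Uqcr11 (-1.49), Ndufs8 (-1.26), Ndufs7 (-1.25) and Sdhd (-1.04). In this fit v6.5 replicate 2 alone weighs as much in the mESC mean as both E14 libraries. For Atp5g1 it held 677 of 12389911 expected reads. The E14 replicates held 2002 of 17008367 and 2238 of 23662593, and MEF held 1046 of 8762640. The counts of the full fit fell to 0 against both types without either E14 library and to 0 or 1 without a partially reprogrammed library, and were 17 and 19 without v6.5 replicate 2 (44.4% and 41.8% of all genes).

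Other pairs of cell types showed no member past the threshold. Between miPS and mESC, 0 of 86 passed (0.0298% of all genes), with 7 at an unadjusted p under 0.05 in edgeR, 1 called by DESeq2 and 0 by limma on log2(TPM + 1). The members' median difference was 0.28 against 0.01 for all genes, and 62 of 86 were above 0. Cox7c, a small complex IV subunit, was at 881 TPM in miPS against 354, 340, 234 and 402 TPM in mESC (log2 difference 1.32, adjusted p = 0.303). Atp5l2 (2.38) and Uqcrb (-1.59) had the other differences of largest size and did not pass either. Without v6.5 replicate 1, 4 members passed, all higher in miPS, against 1.84% of all genes: Atp5g1 (log2 difference 1.75), Atp5g2 (1.53), Cox7c (1.20) and Cox5a (1.12).

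Between the partially reprogrammed lines and MEF, 0 of 86 passed (13.8% of all genes), 2 had an unadjusted p under 0.05 in edgeR, and DESeq2 called 0 and limma on log2(TPM + 1) called 1. Ndufaf3, an assembly factor of complex I, was at 27.7 and 16.4 TPM against 8.20 TPM (log2 difference 1.27, adjusted p = 0.175), and Cox7a1 at 3.99 and 3.15 against 1.76 TPM (1.04, adjusted p = 0.492). Ndufa4l2 was at least 3.10-fold and 6.96-fold above the floor of 3 MEF reads. Without v6.5 replicate 1 as without replicate 2, 5 members passed, and in the fit without replicate 1 they were Ndufa13, Ndufa3 and Ndufv3, lower in the reprogrammed lines, and Ndufs1 and Ndufa4l2, higher, against 28.9% of all genes. Between E14 and v6.5, 0 of 86 passed (0.489% of all genes), with 11 at an unadjusted p under 0.05 in edgeR, 0 called by DESeq2 and 1 by limma on log2(TPM + 1). The differences of largest size were for Atp5l2 (-1.85), Atp5d (-1.25) and Ndufa3 (-1.20), and 28 members passed, with 26.1% of all genes, when v6.5 replicate 2 was left out, so that E14 was compared with replicate 1 alone.

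The core subunits were spread more widely here than in the time course. Atp5b was at 1703, 1788, 2287, 1057, 2106, 1372, 1224 and 991 TPM, and no comparison with it passed in the full fit. Sdha was at 168, 196, 171, 144, 149, 135, 139 and 105 TPM, with MEF lowest. Cox5a was at 266, 272, 499, 224, 468, 334, 342 and 253 TPM, and Cox4i1 at 701, 672, 329, 468, 867, 617, 501 and 570 TPM. Among mESC, v6.5 replicate 1 was the highest library for Cox5a and the lowest for Cox4i1, and for both genes the cell types overlapped. Only 30 of 91 members stayed within 2-fold over the 8 libraries.

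Genes that work beside the chain were taken from lists of cytochrome c and carriers, assembly factors, the citric acid cycle, the mitochondrial ribosome, biogenesis regulators and fatty acid oxidation. The mitochondrially encoded subunits had no tested gene in either table. The counts at day 9 below stand beside 10.3% of all genes higher and 6.22% lower. At day 9, 2 of 13 tested genes of the cytochrome c and carrier list rose and 0 fell, among them Slc25a4, the heart and muscle ADP/ATP carrier, which went from 194, 222 and 236 FPKM to 575, 521 and 276 FPKM (log2 difference 1.00, adjusted p = 0.0348). Slc25a4 was also lower in mESC than in MEF (log2 difference -1.88, adjusted p = 0.00889) and than in the partially reprogrammed lines (-1.66, adjusted p = 0.00703). Of 21 assembly factors 1 rose (Sdhaf1) and 3 fell at day 9, namely Sco1 (a copper chaperone of complex IV, -0.59), Cox10 (a heme synthesis enzyme for complex IV, -0.55) and Lrpprc (a mitochondrial mRNA-binding protein, -0.52).

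In the fatty acid oxidation list 3 of 13 rose and 1 fell at day 9, where 10.3% of all genes rose and 6.22% fell. Acaa2, a thiolase of the pathway, went from 16.0, 19.6 and 14.4 FPKM to 43.4, 36.8 and 26.8 FPKM (log2 difference 1.04, adjusted p = 0.0199). Cpt1a, the liver-type gatekeeper of fatty acid entry into mitochondria, fell from 39.2, 43.9 and 38.7 FPKM to 5.07, 4.86 and 26.1 FPKM (log2 difference -2.07, adjusted p = 0.0398), least with hairpin B. In the citric acid cycle 2 of 17 rose (Idh2 and Idh3b) and 1 fell (Idh3a), in the mitochondrial ribosome 2 of 26 rose (Mrpl11 and Mrpl9) and 0 fell, and of 13 tested biogenesis regulators 0 rose and 1 fell (Pprc1, a coactivator related to PGC-1, log2 difference -1.06). The median log2 differences of these 6 lists at day 9 lay between -0.36 and 0.06, against 0.10 for all genes.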

How the data were processed

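The time course values are FPKM (fragments scaled to transcript length and library size). The submitters' processing notes name Cufflinks 1.3.0, TopHat 1.14, Bowtie 0.12.7 and mm9 as what the authors used for FPKM. The discovery table holds expected counts and TPM (transcript abundance scaled to a common total), which the authors derived from mm9 alignments using RSEM after TopHat 1.3, according to the same notes. Annotation and strandedness are not given in the sources used here. Members that share sequence with pseudogene copies, or overlap other genes, are therefore uncertain. Of the deposited columns, 16 of interval bounds and 8 of ratios were not used.

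Day comparisons used limma 3.58.1 in R 4.3.3 on log2(FPKM + 1) of the 14108 genes that reached 1 FPKM in 2 or more libraries, with day and depletion as terms and 7 residual degrees of freedom. Hairpins were compared in a fit of 8 groups with 4 residual degrees of freedom, in which the lone scrambled library of each day is assumed to vary like the hairpin pairs. A group difference is on the log2(FPKM + 1) scale and understates changes of low genes. Discovery comparisons used the quasi-likelihood test of edgeR 4.0.16 with TMM on expected counts rounded to whole numbers, for 16773 genes that reached 1 CPM in 2 or more libraries, with 3 residual degrees of freedom. MEF and miPS have 1 library each and borrow the spread of the other groups, and mESC is the mean of the E14 and v6.5 groups. P-values were Benjamini-Hochberg adjusted over all genes tested, with a threshold of 0.05, and 12 comparisons were made. The procedures were tested on simulated data.

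Of the members, 88 of 90 and 86 of 91 passed the filters on low values. Cox6a2 and Cox8b failed both, and Cox4i2, Cox7b2 and Cox8c failed in the discovery set. Expected counts of 0 had a deposited TPM above 0, so a low TPM was not read as expression. Depth is unknown for the FPKM libraries apart from their relative depth.

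A culture follows 1 transduced line through the days, which pairs its libraries: deviations from the day means correlated at -0.091 to 0.642 within a culture. The E14 and v6.5 libraries share only a replicate number. Alternatives were the pseudocount, filters, scaling, tool (DESeq2 1.42.0, limma on log2(TPM + 1)), a replicate block, leaving out each replicate library, and leaving out hairpin B of days 6 and 9. The members and lists were chosen with earlier results of these data known. Named throughout were the core catalytic genes and isoform sets, up to 6 members per direction by size among those that passed, and the 3 largest where fewer than 3 passed. Other members are named where a count or a paragraph turns on them, and those were chosen after their values were seen.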

Additional observations from a re-analysis of the deposited data

Results flagged for a closer look

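A library far from the others was looked for over the 4 mESC libraries in 43 members, namely those that the naming rule takes, as a gap to the nearest library that exceeds Dixon's critical share of the whole range on the log2(TPM + 1) scale, and chance alone flags about 1 in 20 such groups. It was found for 2 members. Cox7a2, the general form of subunit 7a, was at 228 TPM in v6.5 replicate 2 and at 161 to 164 TPM in the other 3 libraries. Ndufa4l2 was at 0.957 TPM in v6.5 replicate 1 and at 17.4 to 18.5 TPM in the other 3.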

How the results depend on the processing

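Leaving out each replicate library in turn gave 0 to 5 members at day 3, 0 to 10 at day 6 and 0 to 25 at day 9. In the discovery set it gave 0 to 31 between mESC and MEF, 0 to 36 between mESC and the partially reprogrammed lines, 0 to 4 between miPS and mESC, 0 to 5 between the partially reprogrammed lines and MEF, and 0 to 28 between E14 and v6.5. The fit of 10 libraries without hairpin B of days 6 and 9 gave 7, 16 and 30 members at days 3, 6 and 9, and the replicate block for culture gave 3, 7 and 16. The hairpin comparisons stayed at 0 members in each alternative run, the replicate block included. Between mESC and MEF, 8 members passed with DESeq2, 9 with limma on log2(TPM + 1), 3 without a filter on low counts and 8 with the replicate block for the E14 and v6.5 numbers, whose deviations correlated at 0.32. Between mESC and the partially reprogrammed lines 3 passed without the filter and 9 with that block. DESeq2 called 1 member between miPS and mESC, and limma on log2(TPM + 1) called 1 between the partially reprogrammed lines and MEF and 1 between E14 and v6.5. Without the hairpin B library of the same day, or without both late ones, the hairpin difference turned to 0 for Cox7b2 at day 6, to -0.57 for Ndufa4l2 and to -0.62 for Cox7a1 at day 9. Without the hairpin A library of that day these were 1.13, 1.82 and 1.67. Without v6.5 replicate 1 the difference between E14 and v6.5 turned to 0.13 for Atp5d, and without replicate 2 it was -1.94. The cause was not tested in any of these. Depth limits Cox7a1, Atp5l2 and Ndufa4l2 in the discovery set, where single libraries held few reads or none.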
